A study of Rattus norvegicus with 9 samples.

Results

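Cyclins, their kinases and other proliferation genes were followed in the proximal colon of rats fed 3 proteins. The set held 10 genes: the D-type cyclins Ccnd1, Ccnd2 and Ccnd3, the mitotic cyclin Ccnb1, the kinases Cdk1 and Cdk4, the replication proteins Pcna and Top2a, and the kinase inhibitors Cdkn1a and Cdkn1b. Every probe set whose single gene symbol in the platform annotation was one of these names was taken. That gave 23 of the 8799 probe sets of the Affymetrix RG_U34A rat array, and the array named 4737 genes in all.

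Male Sprague Dawley rats were kept for life on purified diets that differed in their protein. It was casein (CAS) for the controls, a soy protein isolate (SPI) for the second group, and a whey protein hydrolysate (WPH) for the third. All groups, the casein controls included, were given the colon carcinogen azoxymethane at 15 mg/kg in 2 weekly injections from 90 days of age. The tissue was non-tumor proximal colon taken 40 weeks later, and it held mucosa together with the muscle layer. RNA of 7 rats per diet was pooled, and 3 labelled targets were made from each pool, so each diet has 3 arrays. The spread between arrays is therefore technical, and every p-value below compares 3 pools of RNA and not rats. In bulk tissue, fewer cells of a type and less RNA per cell cannot be told apart.

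D-type cyclins bind Cdk4 and its relative Cdk6 in G1 and start the phosphorylation of the retinoblastoma protein, which releases E2F factors and the genes of DNA synthesis. Pcna clamps the DNA polymerases to their template. Cyclin B1 with Cdk1 drives entry into mitosis, and Top2a untangles the copied chromosomes. Cdkn1a (p21) and Cdkn1b (p27) hold cyclin-kinase complexes back. In the colon, dividing epithelial cells lie in the lower crypt, and their offspring stop dividing as they move up to the surface.

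RefSeq promoters on the GRCr8 build were held for 8 of the 10 genes, not for Ccnd1 or Ccnd2. Those of Top2a, the member with the lowest adjusted p, and of Ccnb1, another mitotic gene, are shown as the 250 bases before the annotated start, 5′ to 3′ on the gene's strand. Capitals mark CCAAT on either strand, the letters that NF-Y binds, and TTTGAA on either strand, the letters of the cell cycle homology region (CHR) of mitotic genes. The first lies at chr10:84473094-84473343 and the second at chr2:33655226-33655475, both on the minus strand.
Top2a: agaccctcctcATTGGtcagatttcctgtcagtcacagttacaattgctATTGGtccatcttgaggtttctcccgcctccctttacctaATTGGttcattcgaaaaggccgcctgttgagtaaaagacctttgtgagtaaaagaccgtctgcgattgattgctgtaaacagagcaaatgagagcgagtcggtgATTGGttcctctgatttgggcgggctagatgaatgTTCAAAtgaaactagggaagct
Ccnb1: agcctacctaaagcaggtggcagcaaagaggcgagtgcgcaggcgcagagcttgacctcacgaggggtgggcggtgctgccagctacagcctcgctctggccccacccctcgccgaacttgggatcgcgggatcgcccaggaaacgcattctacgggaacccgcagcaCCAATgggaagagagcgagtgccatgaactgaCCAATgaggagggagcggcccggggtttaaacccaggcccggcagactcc
The Top2a window held CCAAT 4 times, which 0.565% of the 33469 promoters of this length matched or passed, and TTTGAA 1 time, as 16.2% of promoters did at least. The Ccnb1 window held CCAAT 2 times (9.42% of promoters held as many or more) and no TTTGAA. The Cdk1 window, not printed here, held CCAAT 3 times (2.52%), TTTGAA 2 times (2.09%) and the E2F letters TTTCGCGC 1 time. These or TTTGGCGC, on either strand, were in 0.636% of promoters. The Pcna and Ccnd3 windows held 1 CCAAT each, that of Cdkn1b held 2, and those of Cdk4 and Cdkn1a held none of these letters. A match of letters is a description of the window and not a site of binding.

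The signals are Affymetrix MAS 5.0 values, each array scaled by the authors to an average of 500. A probe set was tested where its mean signal reached 100 in at least 1 diet, which held for 5606 probe sets and for 19 of the 23 here, from 9 of the 10 genes. A call needed a limma p-value, adjusted over all 5606, of less than 0.05. In WPH against CAS, 2 of the 19 were called higher and 5 lower, beside 20.9% and 17.9% of all probe sets tested, and the share of the members was 10.5% and 26.3%. In SPI against CAS, 1 was higher and 2 were lower (5.26% and 10.5%, beside 12.0% and 10.2% of all). In SPI against WPH, 2 were higher and 1 was lower (10.5% and 5.26%, beside 10.1% and 9.83%). The shares of the members were thus near or below those of all probe sets, apart from the lower side in WPH against CAS, where theirs was larger. Of those 5 calls, 3 were of Ccnd1. Another, Cdkn1a L41275cds_s_at, was tested only through its CAS mean of 117.9, with means of 66.4 in SPI and 36.4 in WPH. With the filter at 200 it was left out and 4 were called lower. Their median log2 change was −0.20 in WPH against CAS, where that of all probe sets tested was 0.06, and −0.21 in SPI against CAS, where it was −0.01. The probe sets of a gene share their transcript and the 3 comparisons share their arrays, so these counts are not independent.

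**Figure D1:**
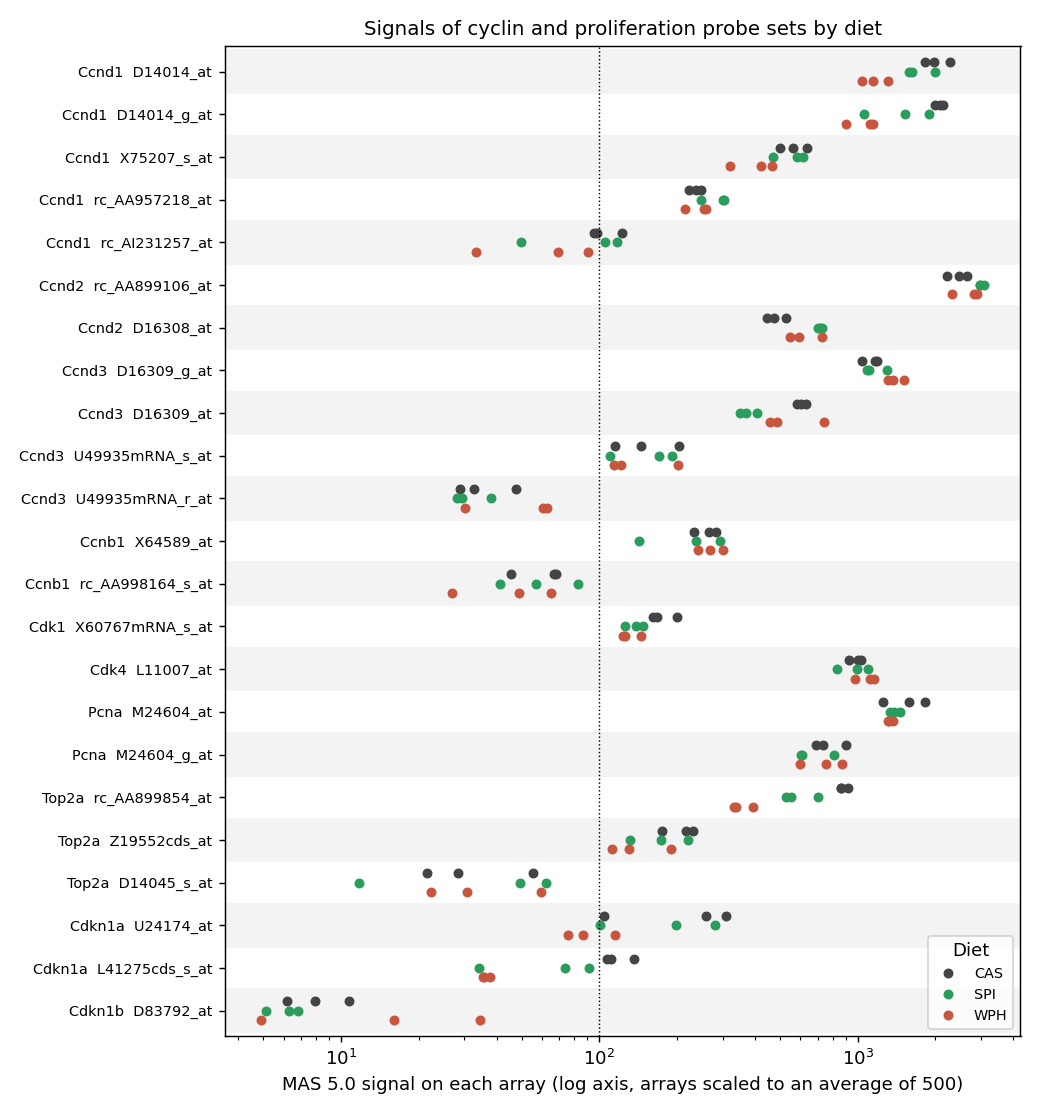
Signal on each of the 9 arrays (log axis, MAS 5.0 units) for the 23 probe sets of the 10 genes, 3 points per diet, with the dotted line at a signal of 100. The WPH points of Ccnd1 D14014_at, Ccnd1 D14014_g_at and Top2a rc_AA899854_at lie below all CAS points, and Cdkn1b lies far under the line in every diet.

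Ccnd1, the cyclin D1 gene (chr1:209518288-209527986 on GRCr8), had the most probe sets. On D14014_at the signals were 1831, 2282 and 1982 with CAS, 1619, 1583 and 1994 with SPI, and 1312, 1144 and 1037 with WPH. All WPH arrays lay below all others, while SPI and CAS overlapped. The signal fell 1.75-fold in WPH against CAS (log2 −0.80 ± 0.13 SE, n = 3 arrays per diet, limma adjusted p = 0.000459). SPI lay above WPH by a log2 of 0.57 (adjusted p = 0.00946), and SPI against CAS gave −0.23 (95% interval −0.52 to 0.05, adjusted p = 0.245).

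The second Ccnd1 probe set, D14014_g_at, read 2082, 1996 and 2141 with CAS, 1055, 1889 and 1525 with SPI, and 899, 1116 and 1145 with WPH. No array of SPI or WPH reached the lowest CAS array. It fell by 0.98 on the log2 scale in WPH against CAS (adjusted p = 0.00114). For SPI against CAS the value was −0.52 (adjusted p = 0.064), and it passed the threshold without SPI replicate 2 (−0.71, adjusted p = 0.0109) and narrowly with the replicate number as a block (adjusted p = 0.0495). On X75207_s_at the WPH arrays read 424, 468 and 322, below the CAS arrays at 499, 560 and 636, and the SPI arrays read 582, 469 and 614. Its fall in WPH (log2 −0.49, adjusted p = 0.0373) was past the threshold in the 9-array fit but missed it without CAS replicate 2 (0.0763), CAS replicate 3 (0.134), WPH replicate 1 (0.0528) or WPH replicate 3 (0.132). On all 9 arrays it was also lost with no filter on dim probe sets, quantile normalization, median centring, no variance trend, the tests of the methods, and a block for either the replicate number or the wash round.

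The other Ccnd1 probe sets were dimmer. For rc_AA957218_at the signals were 223 to 247 with CAS, 247 to 305 with SPI and 214 to 258 with WPH, and the log2 change in WPH was 0.03 (95% interval −0.29 to 0.36, adjusted p = 0.887). Its interval does not reach the change of the D14014 probe sets, so the Ccnd1 probe sets disagreed. For rc_AI231257_at no array passed 122, and its WPH value of −0.82 had an interval from −1.78 to 0.15. Thus 3 of 5 Ccnd1 probe sets, the 3 brightest, were called lower in WPH, none was called in SPI against CAS, and 1 separated SPI from WPH.

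Ccnd2, the cyclin D2 gene (chr4:161653048-161675422), was not called lower on either of its probe sets in any comparison. On the dimmer one, D16308_at, the signals were 529, 476 and 445 with CAS, 705, 715 and 726 with SPI, and 550, 593 and 728 with WPH. All SPI and WPH arrays lay above all CAS arrays. It rose 1.48-fold in SPI (log2 0.57 ± 0.13, adjusted p = 0.00805). In WPH it was called higher (log2 0.36, adjusted p = 0.0429), and that call was lost in 7 of the 9 fits that left out an array. The exceptions were the fits without CAS replicate 1 and without WPH replicate 1.

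On the brighter Ccnd2 probe set, rc_AA899106_at, the signals were 2481, 2662 and 2221 with CAS, 2973, 3097 and 2972 with SPI, and 2319, 2823 and 2897 with WPH. The SPI arrays lay above all CAS arrays and WPH overlapped both. The log2 values were 0.30 in SPI (adjusted p = 0.0647) and 0.12 in WPH (adjusted p = 0.39). The SPI value was called without WPH replicate 1 (adjusted p = 0.036).

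Ccnd3, the cyclin D3 gene (chr9:20891696-20987199), gave probe sets that disagreed. D16309_g_at read 1186, 1044 and 1171 with CAS, 1112, 1304 and 1092 with SPI, and 1314, 1506 and 1369 with WPH, where every array was the highest of the 3 diets. It was called higher in WPH (log2 0.30, adjusted p = 0.0445), a call lost in 7 of the 9 fits that left out an array and kept without SPI replicate 2 or WPH replicate 1. D16309_at, whose name shares the same source sequence, read 630, 584 and 603 with CAS, 369, 408 and 350 with SPI, and 457, 488 and 745 with WPH. Here the SPI arrays were the lowest: the signal fell by 0.69 on the log2 scale in SPI against CAS (adjusted p = 0.0137, and 0.0508 without SPI replicate 3).

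The log2 value of D16309_at in WPH against CAS was −0.14 (95% interval −0.52 to 0.24), with WPH replicate 3 the highest of all arrays. Without that array it was −0.36 and called lower (adjusted p = 0.0469). SPI lay below WPH by a log2 of −0.55 (adjusted p = 0.0425), a call kept without WPH replicate 1 and lost in each of the other 8 fits. The third tested probe set, U49935mRNA_s_at, was dim, with means of 154, 157 and 146 in CAS, SPI and WPH, and its partner U49935mRNA_r_at was under 100 on all arrays. A direction for Ccnd3 thus depended on the probe set.

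Among the kinases, Cdk4, the partner of the D-type cyclins, read 1008, 924 and 1033 with CAS, 996, 1100 and 832 with SPI, and 975, 1122 and 1157 with WPH. The diets overlapped. The log2 values were 0.13 in WPH (95% interval −0.14 to 0.40) and −0.03 in SPI (−0.30 to 0.24), so changes as large as that of Ccnd1 D14014_at lie outside the interval for WPH. Cdk1, the mitotic kinase, read 161, 167 and 200 with CAS, 126, 147 and 138 with SPI, and 124, 126 and 145 with WPH on its probe set X60767mRNA_s_at. The CAS arrays lay above all others, yet neither value was called: −0.42 in WPH (adjusted p = 0.0973) and −0.36 in SPI (adjusted p = 0.208). The 95% interval in WPH ran from −0.82 to −0.01.

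Ccnb1, the cyclin that Cdk1 binds, read 284, 233 and 265 with CAS, 237, 294 and 142 with SPI, and 242, 269 and 302 with WPH on X64589_at. The groups overlapped and no comparison was called (log2 0.05 in WPH, 95% interval −0.47 to 0.58). Its other probe set, rc_AA998164_s_at, had means of 60.1, 60.3 and 46.9 and was not tested.

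**Figure D2:**
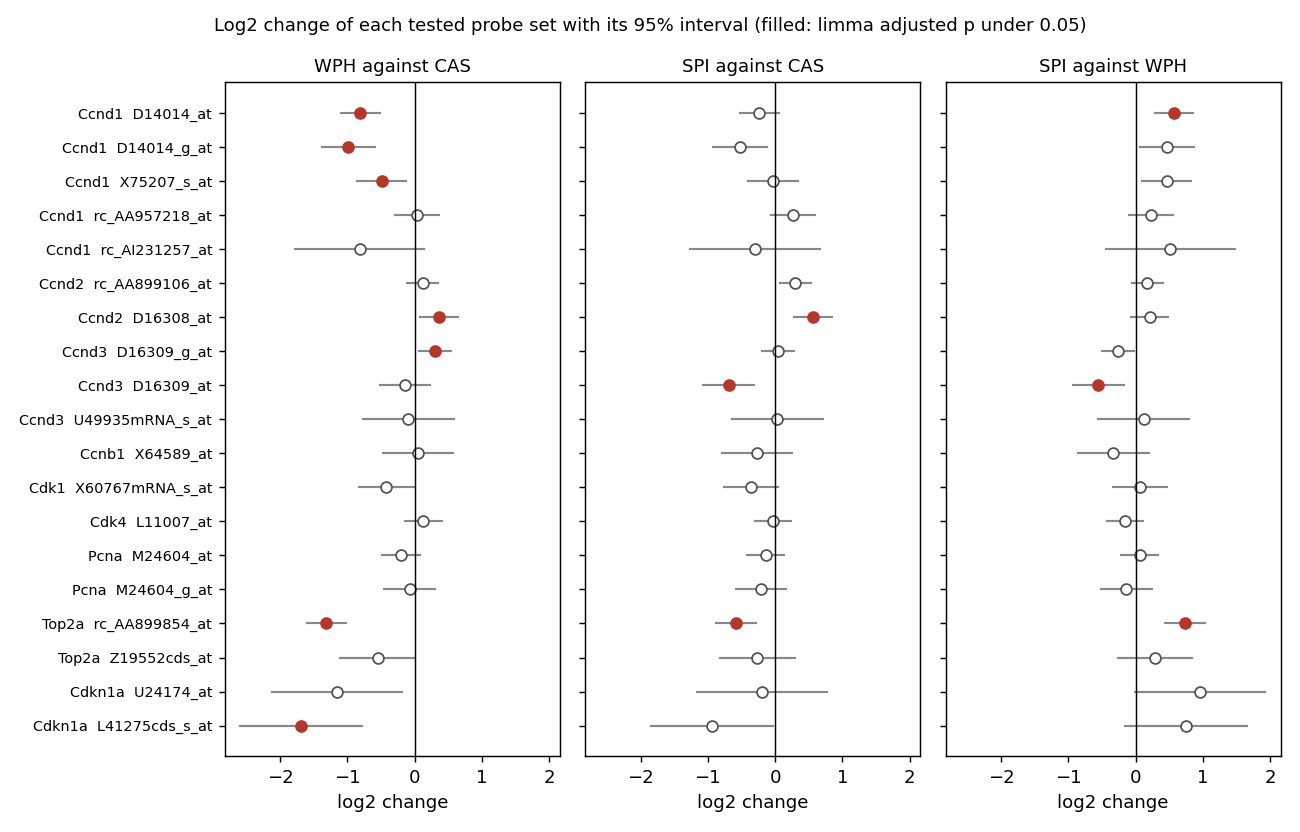
Log2 change of the 19 tested probe sets in 3 comparisons, with 95% limma intervals; filled points have an adjusted p under 0.05. In WPH against CAS the filled points left of 0 are 3 probe sets of Ccnd1 and 1 each of Top2a and Cdkn1a, and those right of 0 are Ccnd2 D16308_at and Ccnd3 D16309_g_at.

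Top2a, topoisomerase II alpha (chr10:84441954-84473093), made in dividing cells from S phase to mitosis, had the lowest adjusted p of the set. On rc_AA899854_at the signals were 864, 916 and 865 with CAS, 551, 529 and 702 with SPI, and 395, 332 and 339 with WPH. The 3 diets did not overlap, with SPI between the others. The signal fell 2.48-fold in WPH (log2 −1.32 ± 0.13, adjusted p = 1.32e-05) and 1.48-fold in SPI (log2 −0.58 ± 0.13, adjusted p = 0.00885). The difference between SPI and WPH, tested itself, was a log2 of 0.74 (adjusted p = 0.0026).

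The dimmer Top2a probe set Z19552cds_at read 175, 231 and 217 with CAS, 131, 221 and 174 with SPI, and 190, 112 and 131 with WPH. The groups overlapped, and the log2 values of −0.55 in WPH (adjusted p = 0.11) and −0.26 in SPI (adjusted p = 0.519) were not called. Without WPH replicate 1 the WPH value was called lower (adjusted p = 0.0356). D14045_s_at was at means of 35.2, 41.1 and 37.5 and not tested.

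Pcna, the replication clamp, was not called on either probe set. M24604_at read 1252, 1579 and 1822 with CAS, 1380, 1465 and 1333 with SPI, and 1323, 1375 and 1307 with WPH. CAS replicate 1 lay below every other array, and the other CAS arrays lay above them. Its log2 values were −0.20 in WPH (95% interval −0.48 to 0.08) and −0.14 in SPI (−0.42 to 0.14), and without CAS replicate 1 the WPH value was −0.35 and called lower (adjusted p = 0.0331). M24604_g_at had means of 776, 673 and 741 with CAS, SPI and WPH, and a log2 value in WPH of −0.07 (−0.45 to 0.30). The interval of M24604_at in WPH does not reach the change of Top2a rc_AA899854_at.

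Of the inhibitors, Cdkn1a was near the dim end. On L41275cds_s_at the signals were 136, 111 and 107 with CAS, 91.4, 34.1 and 73.7 with SPI, and 37.9, 35.5 and 35.7 with WPH. All SPI and WPH arrays were under 100 and below all CAS arrays. With signals under 100 set to 100, the fall in WPH was at least 1.18-fold. The limma test used the signals as read, where the log2 change in WPH was −1.69 (adjusted p = 0.00668). SPI against CAS was not called (adjusted p = 0.135). On U24174_at the signals were 104, 308 and 260 with CAS, 199, 100 and 279 with SPI, and 115, 75.4 and 86.6 with WPH. CAS replicate 1 lay within the WPH range there, and the WPH value of −1.16 was not called (adjusted p = 0.0578). It was called lower without CAS replicate 1 (0.00743), SPI replicate 2 (0.0315) or SPI replicate 3 (0.0498). Cdkn1b, with a single probe set, read 4.9 to 34.6 over the 9 arrays, so it was dim in all 3 diets and had no test.

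The order of the diets was the same on the brightest probe sets of Ccnd1 and Top2a, with CAS highest and WPH lowest. For Top2a rc_AA899854_at both steps in that order passed the test. For Ccnd1 D14014_at CAS and SPI did not differ beyond their spread. Where SPI and WPH were each set against CAS, the same 3 CAS arrays served both comparisons.

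Other cell cycle genes were read from 7 lists, 1 probe set per gene (the brightest). Their counts, and those of the marker lists below, stand beside the shares of all probe sets tested. Those shares were 20.9% higher and 17.9% lower in WPH against CAS, and 12.0% and 10.2% in SPI against CAS. Of 2 tested genes among other cyclins (Ccne1 and Ccng1), none was called in either diet against CAS. Ccne1, the cyclin of entry into S phase, had log2 values of 0.05 in WPH and −0.26 in SPI, and Ccng1, a p53 target, had −0.03 and −0.17. Of 8 other kinases and activators, 2 rose in both diets: Cdk17, a kinase of the PCTAIRE group that neurons express (1.62-fold in WPH, adjusted p = 0.0101, and 1.48-fold in SPI, adjusted p = 0.0475), and Cdc37, the Hsp90 co-chaperone that loads Cdk4 and other kinases (1.34-fold and 1.36-fold). Of 3 tested genes of other inhibitors and the retinoblastoma family, Rbl2 (p130) rose in WPH (1.24-fold, adjusted p = 0.0243) and was not called in SPI (log2 −0.19).

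Of 15 tested DNA replication genes, 1 rose and 1 fell in WPH, and 3 fell in SPI. Mcm6, a subunit of the replicative helicase, read 767, 768 and 867 with CAS, 477, 623 and 633 with SPI, and 442, 429 and 436 with WPH. The diets overlapped nowhere, and it fell 1.84-fold in WPH (adjusted p = 0.000236) and 1.39-fold in SPI (adjusted p = 0.0203). Dut, which keeps uracil out of DNA, fell 1.31-fold in SPI (adjusted p = 0.0417) and had a log2 of −0.27 in WPH (adjusted p = 0.119). Outside the naming rule, and named because the counts are small, were the dim Mcm5, lower in SPI (adjusted p = 0.0318), and Pold1, higher in WPH (adjusted p = 0.0338). Mcm5 was tested only through its CAS mean of 140.3, and all its SPI arrays were under 100. The list's median log2 change was −0.25 in WPH and −0.11 in SPI.

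Of 12 tested mitosis genes, 6 fell in WPH and none rose, and 2 fell in SPI. Racgap1, needed for the cleavage furrow, read 477, 473 and 468 with CAS, 331, 330 and 292 with SPI, and 223, 187 and 253 with WPH. Its diets did not overlap, and it fell 2.14-fold in WPH (adjusted p = 8.06e-05) and 1.49-fold in SPI (adjusted p = 0.0127). Stmn1, which destabilizes microtubules, fell 1.62-fold in WPH (adjusted p = 0.00122) and 1.46-fold in SPI (adjusted p = 0.0108). Pttg1 (securin) fell 1.66-fold in WPH (adjusted p = 0.00653), and H2az1, a histone variant, fell 1.58-fold (adjusted p = 0.0273). Neither was called in SPI. Plk1 and Bub1b, kinases of mitosis and its checkpoint that the naming rule left out, made up the 6. Bub1b was tested only through its CAS mean of 118.6. All its SPI and WPH arrays were under 100, so its fall in WPH was at least 1.19-fold. The list's median was −0.33 in WPH and −0.12 in SPI.

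Of 9 genes of the p53 pathway and growth arrest, 1 rose and 2 fell in WPH and 3 fell in SPI. Of all probe sets tested, 20.9% rose and 17.9% fell in WPH, and 10.2% fell in SPI. Gadd45a, a p53 target, fell 1.52-fold in WPH (adjusted p = 0.00786) and 1.45-fold in SPI (adjusted p = 0.0311). Pmp22, also known as a growth arrest gene and a myelin protein, fell 1.84-fold and 1.89-fold. Gas6, a ligand of TAM receptors, fell 1.34-fold in SPI (adjusted p = 0.0448), and Bcl2l1, which blocks apoptosis, rose 1.69-fold in WPH (adjusted p = 0.0201).

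Of 12 tested genes of the Myc network and Wnt targets, 3 rose and 3 fell in WPH, and 1 rose and 2 fell in SPI. The shares of all probe sets were 20.9% and 17.9% in WPH, and 12.0% and 10.2% in SPI. Odc1, the first enzyme of polyamine synthesis and a Myc target, fell 1.5-fold in WPH (adjusted p = 0.00187) and 1.32-fold in SPI (adjusted p = 0.0279). Ncl (nucleolin) rose 1.42-fold and 1.3-fold. Cd44, a hyaluronan receptor that several cell types carry, rose 1.6-fold in WPH (adjusted p = 0.00169), and Tcf4 rose 1.42-fold (adjusted p = 0.046). The other falls were of Mxi1, a Myc antagonist, in both diets and of the dim stem cell factor Ascl2 in WPH. Ascl2 was tested only through its CAS mean of 108, and all its WPH arrays were under 100.

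**Figure D3:**
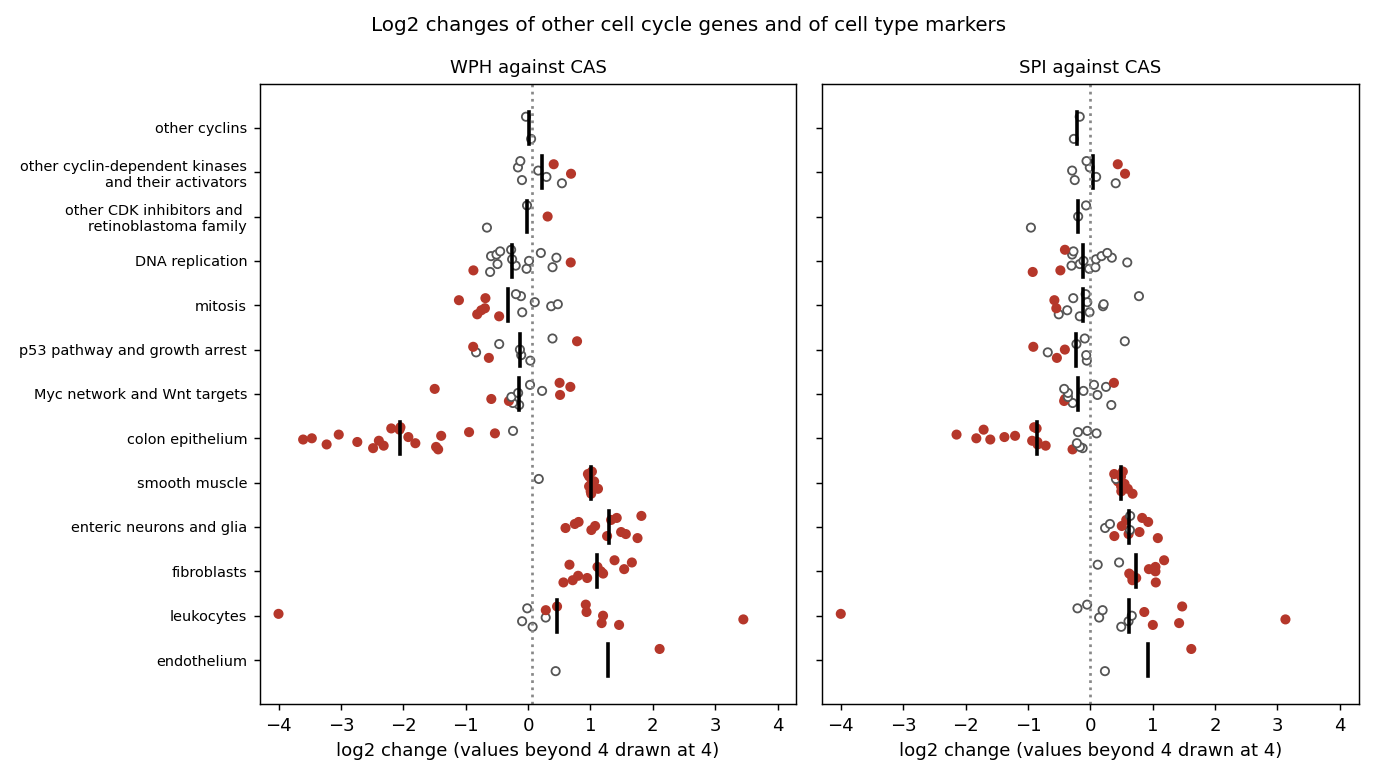
Log2 change of each tested gene of the 7 other cell cycle lists and 6 cell type marker lists, in WPH against CAS (left) and SPI against CAS (right); filled points have a limma adjusted p under 0.05, bars are list medians, and the dotted line is the median of all probe sets tested. The mitosis list has 6 filled points left of 0 in WPH and a median of −0.33, and the colon epithelium list has 18 and a median of −2.06.

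Markers of the cell types in the colon wall moved with the diets as well. Of 19 colon epithelium genes, 18 fell in WPH and 13 in SPI, none rose, and 16 were higher in SPI than in WPH. Their summed signal was 88480 to 95710 with CAS, 53340 to 55790 with SPI and 24370 to 26330 with WPH, and the dimmest of the 19 there was Aqp8, an aquaporin, at 42.9 to 69.1. Muc2, the mucin of goblet cells, fell 12.0-fold in WPH and 3.0-fold in SPI, and Muc3, a mucin of enterocytes, 11.1-fold and 3.56-fold. Thus the summed epithelial markers stood in the order CAS, SPI, WPH, as Ccnd1 D14014_at and Top2a rc_AA899854_at did. The part of these markers in the results for Ccnd1, Top2a and the mitosis genes was not tested.

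Set against the mean of the CAS arrays, the epithelial sum was 0.262 to 0.283 on the WPH arrays and 0.572 to 0.599 on the SPI arrays. Ccnd1 D14014_at was 0.51 to 0.646 with WPH and 0.779 to 0.981 with SPI. Top2a rc_AA899854_at was 0.376 to 0.448 with WPH and 0.6 to 0.796 with SPI. Racgap1 was 0.396 to 0.536 and 0.617 to 0.701, Mcm6 was 0.536 to 0.552 and 0.596 to 0.79, and Pcna M24604_at was 0.842 to 0.887 and 0.859 to 0.945. The epithelial sum rests most on its brightest genes, and single genes of the list differed. Outside the naming rule, Lgals4 fell 1.45-fold in WPH, less than Ccnd1 D14014_at at 1.75-fold, and Cftr was not called. All other genes of the list fell more than Ccnd1 D14014_at in WPH, from 1.92-fold (Tff3) to 12.0-fold (Muc2).

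**Figure D4:**
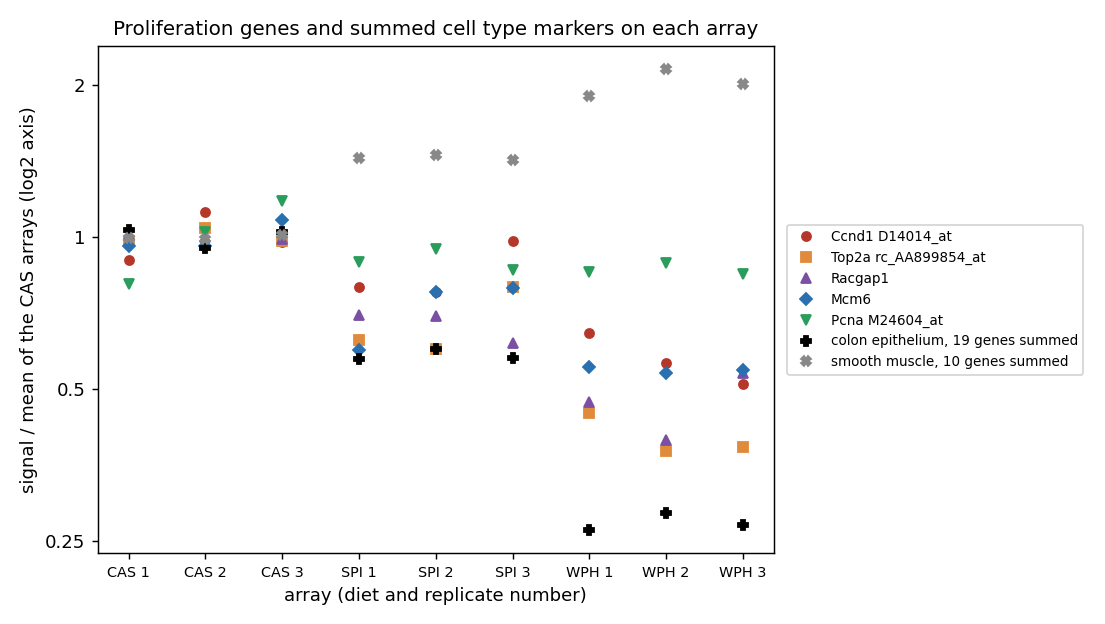
Signal on each array divided by the mean of the 3 CAS arrays (log2 axis), for 5 proliferation probe sets and for the summed signals of 19 colon epithelium and 10 smooth muscle genes. On the WPH arrays the epithelial sum lies at 0.262 to 0.283, below all 5 proliferation probe sets, and the smooth muscle sum at 1.9 to 2.15, above them.

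Markers of the deeper wall rose. Of 10 smooth muscle genes, 9 rose in each diet, and their sum was 119100 to 121400 with CAS, 170000 to 173500 with SPI and 227600 to 258300 with WPH. Myh11, smooth muscle myosin, rose 2.18-fold in WPH and 1.52-fold in SPI, and Cnn1 (calponin) 2.09-fold and 1.36-fold. Of 12 tested genes of enteric neurons and glia, 12 rose in WPH and 8 in SPI. Uchl1 rose 3.37-fold in WPH and 2.14-fold in SPI, and Nefm 2.97-fold and 1.54-fold. Of 11 fibroblast genes, 11 rose in WPH and 9 in SPI, among them Dcn (2.9-fold and 1.9-fold) and, in WPH, Thy1 (3.19-fold), a gene neurons and T cells also express.

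Of 13 tested leukocyte genes, 8 rose and 1 fell in WPH, and 5 rose and 1 fell in SPI. Cd8a was at least 2.5-fold higher in WPH and at least 1.99-fold higher in SPI, and Cd52 went the other way, at 3174 to 3687 with CAS and at most 20.0 on the other arrays. Of 2 tested endothelial genes, Egfl7 rose in both. Cdk17, Rbl2, Cd44 and Ccnd2 D16308_at rose in WPH beside these muscle, nerve, fibroblast and leukocyte markers, and their part was not tested.

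Other properties of the arrays differed between diets too. The 3′ to 5′ signal ratio of β-actin, a measure of RNA length, was 1.83 to 1.88 with CAS, 2.14 to 2.36 with SPI and 2.53 to 3.5 with WPH, in the order of the Ccnd1 and Top2a signals. Its part was not tested. The times that the fluidics (wash and stain) section of the instrument settings files gives under hybridization fell into 3 groups, called wash rounds here: the CAS arrays with WPH replicate 2, SPI replicates 1 and 2 with WPH replicates 1 and 3, and SPI replicate 3 alone. Within the first, WPH replicate 2 lay below the CAS mean by a log2 of −0.82 on Ccnd1 D14014_at, −0.89 on D14014_g_at and −1.41 on Top2a rc_AA899854_at. Within the second, SPI lay above WPH by 0.46, 0.48 and 0.56. With the wash round as a block, WPH against CAS rests on WPH replicate 2 alone, whose spread is taken from the other arrays. In that fit these 3 probe sets were called lower in WPH, and Ccnd1 X75207_s_at (adjusted p = 0.459) and Cdkn1a L41275cds_s_at (adjusted p = 0.0698) were not. The higher calls of Ccnd2 D16308_at and Ccnd3 D16309_g_at were lost as well, and Ccnd1 rc_AI231257_at was called lower (adjusted p = 0.0172). No member was called in SPI against CAS in that fit, where only 252 of all 5606 probe sets were called. SPI against WPH was not called for Ccnd1 D14014_at (adjusted p = 0.101).

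The genes most like Ccnd1 D14014_at were sought among 3606 probe sets of other genes with a mean signal of 200 or more in a diet. Likeness was the root mean square difference of the centred log2 signals over the 9 arrays. Each gene was taken once, by its nearest probe set. The nearest were Adipor2 (0.09), an adiponectin receptor, Cyb5b (0.10), a mitochondrial cytochrome b5, Ap1s1 (0.12), an adaptor of clathrin coats, Furin (0.12), a proprotein convertase, and Fam241b (0.12). Adipor2 read 1525, 1998 and 1673 with CAS, 1615, 1510 and 1657 with SPI, and 1082, 1026 and 910 with WPH. Among the members, the nearest were Ccnd1 X75207_s_at at 0.20 and Top2a rc_AA899854_at at 0.23. No gene of the other cell cycle lists was among the nearest 5, which says little, as only 5 were taken from so many candidates.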

How the data were processed

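RNA from 9 arrays (3 per diet) was measured on the Affymetrix RG_U34A array. Per the labels and methods, 8 µg of pooled RNA went into cDNA synthesis, and 10 µg of labelled cRNA was hybridized for 16 h. The authors computed the deposited signal with MAS 5.0, scaled to 500. The number of arrays limits the precision. The members and gene lists were chosen with earlier results of these data known.

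Signals under 0.1 were set to 0.1 and log2 transformed, and the 59 control probe sets were left out. All 3 diets were fitted together with limma 3.58.1 (R 4.3.3, lmFit and eBayes with a variance trend), with Benjamini-Hochberg adjustment over the 5606 probe sets with a mean of at least 100 in a diet. The methods required an unadjusted t-test, the SAM method and pairwise change calls together. Of these, only the t-test was run here as an alternative, unadjusted and with a Benjamini-Hochberg adjustment that the methods did not use. The script was tested on simulated data. Folds are ratios of mean signals. Where all arrays of a diet were under 100, signals under 100 were set to 100 and the fold is a lower bound. The limma tests used the signals without that change. Of the 8799 probe sets, 7018 had 1 symbol in the platform annotation, 308 several and 1473 none.

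Named were all members, up to 4 genes of each other cell cycle list and up to 2 of each marker list with the largest called changes and a mean of at least 200, and the 5 genes most like Ccnd1. Alternatives were a floor of 50, a pseudocount of 32, filters of 200 or none, quantile or median normalization, no variance trend, 6 arrays, the t-test, a block for the replicate number or for the wash round, and each array left out. Single wash rounds were added after seeing the data. No pair of arrays held identical values. The deposited instrument settings files gave the wash rounds and no signal.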

Additional observations from a re-analysis of the deposited data

How the results depend on the processing

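The falls of Ccnd1 D14014_at (log2 −0.89 to −0.72), Ccnd1 D14014_g_at (−1.05 to −0.87) and Top2a rc_AA899854_at (−1.41 to −1.24) in WPH against CAS were called under every alternative run. In 2 of these, the wash round as a block and the first wash round alone, WPH against CAS is 1 WPH array against 3 CAS arrays, and that array is assumed to vary like the others. Over the member probe sets, 1098 values under alternatives kept their direction and side of the threshold, 68 lost a call, 22 gained one, and 35 turned sign where no call had been made. For most, the cause was not tested.

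The count of members higher in WPH against CAS, 2, was 0 with no filter on dim probe sets and with no variance trend. It was also 0 with the t-test after the adjustment added here, with the replicate block and with the wash round as a block. The first wash round alone, with 1 WPH array, is left out of this count. The count was 1 with only the 6 arrays compared and with the unadjusted t-test, and 0 to 2 without each array in turn. The count lower, 5, was 4 to 7 without each array. In SPI against CAS, the count higher, 1, was 2 with median centring and with the unadjusted t-test and 0 with the wash round as a block, and 1 to 2 without each array. The count lower, 2, was 3 with the replicate block (Ccnd1 D14014_g_at added) and with the unadjusted t-test (Cdk1 added), 1 with the adjusted t-test, 0 with the wash round as a block, and 1 to 3 without each array. In SPI against WPH, the count higher, 2, was 0 with the adjusted t-test and in the second wash round alone, 1 with the wash round as a block, and 2 to 5 without each array (5 without SPI replicate 2). The count lower, 1, was 0 with no filter, no variance trend, 6 arrays, either t-test or the replicate block. It was also 0 with the wash round as a block or the second round alone, and 0 to 1 without each array. Calls over all 5606 probe sets, both directions together, changed as well. In WPH against CAS they numbered 2081 with no variance trend and 1576 with the adjusted t-test. In SPI against CAS they numbered 761 with the adjusted t-test and 252 with the wash round as a block. In SPI against WPH they numbered 533 with the adjusted t-test and 315 in the second round alone.

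Arrays of the same number share only a number: their deviations correlated at −0.275 to 0.237 over 9 pairs, and those of other numbers at −0.345 to 0.286 over 18. The replicate block left 4 members lower and 0 higher in WPH against CAS. With the wash round as a block, SPI was set against CAS only through WPH, and SPI replicate 3 added nothing. Single rounds were chosen as alternatives after seeing the data. The standard errors were largest for both Cdkn1a probe sets and Ccnd1 rc_AI231257_at. Of these, both Cdkn1a probe sets were over 100 on every CAS array, U24174_at at 104 to 308 and L41275cds_s_at at 107 to 136. Among the 23 probe sets, 4 were too dim to test.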
